A study of Mus musculus with 16 samples.

Results

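The Hox cluster genes were followed in 2 organs of the P7 (postnatal day 7) C57BL/6J mouse, the lung and the cerebellum, each taken whole after dexamethasone, a synthetic glucocorticoid, or vehicle alone. Members were taken as every gene whose symbol is Hoxa, Hoxb, Hoxc or Hoxd followed by a paralogue number. In all, 33 such genes were measured among 18193, comprising 9 of the Hoxa, 9 of the Hoxb, 7 of the Hoxc and 8 of the Hoxd cluster. Each of the 4 groups, vehicle cerebellum, dexamethasone cerebellum, vehicle lung and dexamethasone lung, held 4 arrays, 16 in all. The series is described as chronic glucocorticoid treatment, and the labels used here name neither the dose nor the schedule nor the sex of the mice. Each value therefore mixes all cell types of the dissected tissue, and fewer cells of a type cannot be told apart from less RNA per cell. A further 6 Hox genes are not analysed here.

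Hox genes encode homeodomain transcription factors that specify position along the body axis. They lie in clusters on separate chromosomes, and their order along a cluster matches the order of their expression domains, with low paralogue numbers reaching furthest toward the head. In the developing hindbrain the cerebellum arises from the most anterior segment, which lies in front of the Hox-expressing segments, while the medulla behind it expresses members up to the middle of the clusters. In the lung, Hox genes of the Hoxa and Hoxb clusters are expressed mainly in mesenchyme, and Hoxa5 is required for normal development of the airways. Paralogues 1 to 4 are called anterior below, 5 to 8 central and 9 to 13 posterior.

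All values are on a log2 scale, as robust multi-array averages (RMA) per probe set, so a difference of 1 is a doubling. A probe set without target RNA still gets an RMA value, and RMA compresses differences near the floor. Of the 33 members, 18 lay below the array median of all probe sets on each of the 16 arrays. These were 11 of 14 posterior, 5 of 9 central and 2 of 10 anterior members. In vehicle lung, 6 anterior and 4 central members were above that median on all 4 arrays, and no posterior member was. For example, Hoxa11, a limb and uterine patterning gene, lay between 4.18 and 4.55 on every lung and cerebellar array, and Hoxc10 between 3.94 and 4.29. For most of these 18 the values lay near the floor of the arrays, where differences are compressed.

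**Figure D1:**
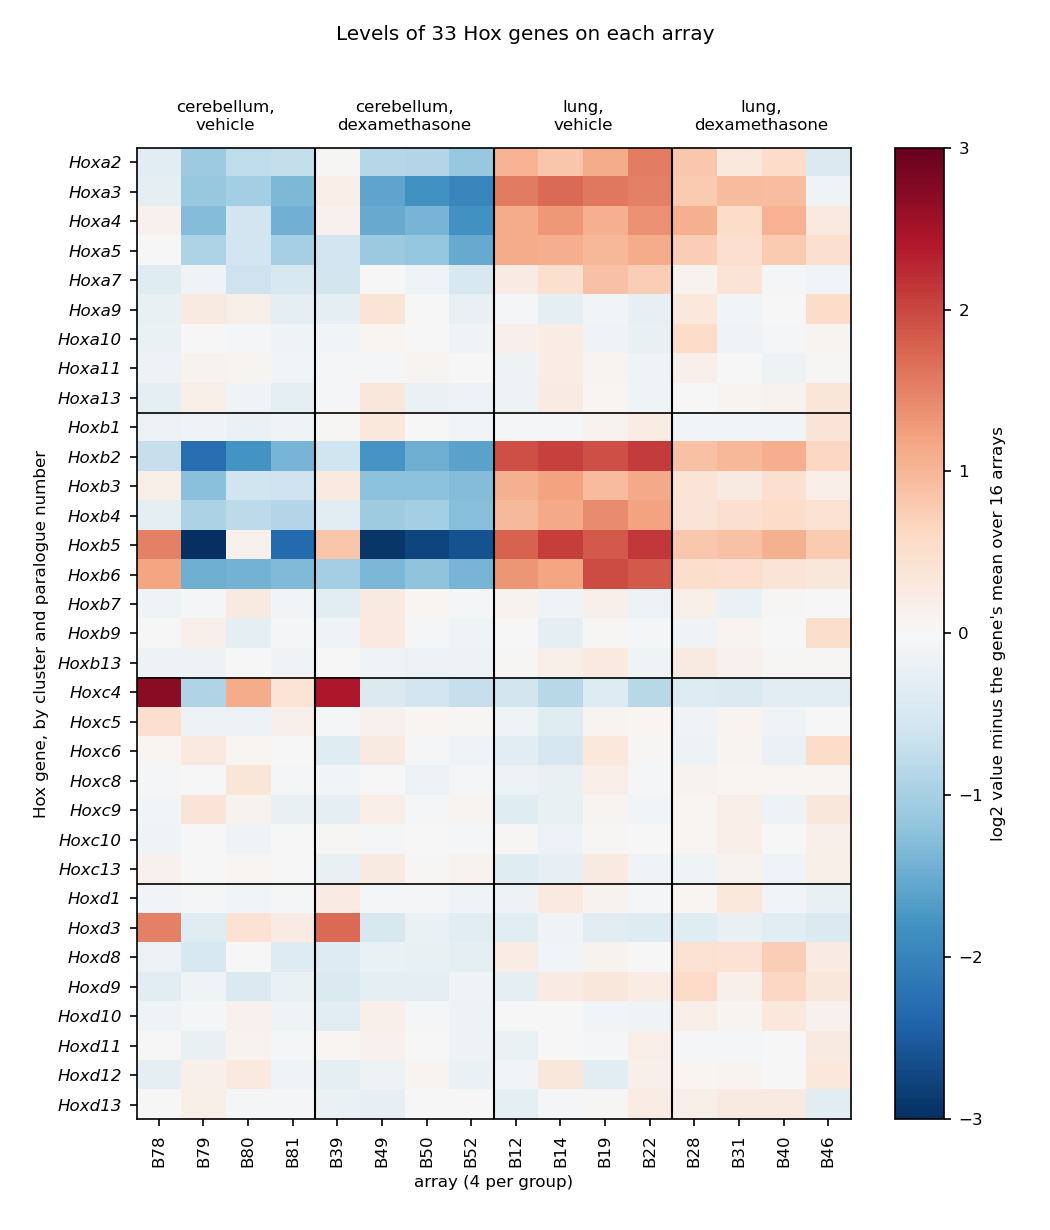
Heat map of 33 Hox genes (rows, by cluster and paralogue number) on 16 arrays (columns, 4 per group). Colour gives the log2 value minus the mean of that gene over the 16 arrays. Hoxa2 to Hoxa7 and Hoxb2 to Hoxb6 are high in lung, and Hoxb5, Hoxc4 and Hoxd3 are high on the cerebellar arrays B78 and B39.

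The tissues differed in a block of neighbouring genes at the anterior and central end of the Hoxa and Hoxb clusters. All 5 measured Hoxa genes from Hoxa2 to Hoxa7 and all 5 measured Hoxb genes from Hoxb2 to Hoxb6 were higher in vehicle lung than in vehicle cerebellum. Hoxb2 differed 11.8-fold, Hoxb5 7.54-fold and Hoxa3 5.78-fold. The size for Hoxb5 depended on single vehicle cerebella: its log2 difference of 2.91 was 3.74 without B78 and 2.18 without B79, below the 2.47 of Hoxa3 without B79. That of Hoxb6, 2.33, was 2.98 without B78. In the Hoxd cluster, Hoxd8 and Hoxd9 were higher in lung by 1.24-fold and 1.33-fold, but the second Hoxd8 probe set had a log2 difference of 0.15 and was not called (limma adjusted p = 0.411 over all probe sets). Thus 12 of 33 members were higher in lung (limma, adjusted p under 0.05) and 0 were lower, against 28% of all genes tested higher and 29.7% lower, 57.7% in either direction. By class, 6 of 10 anterior, 5 of 9 central and 1 of 14 posterior members were higher. The median log2 difference was 0.10 over the 33 members, 1.77 over the anterior members and 0.00 over all genes. RNA quality, read from the Gapdh control as 3′ minus 5′ log2 signal, also differed, at 0.84 to 1.04 in vehicle lung and 0.044 to 0.518 in vehicle cerebellum, and its part in the Hox values was not tested.

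Hoxb2, which acts in hindbrain segment identity, lay at 9.56, 9.68, 9.55 and 9.73 in vehicle lung and at 6.92, 5.33, 5.83 and 6.22 in vehicle cerebellum. The groups were more than 2 log2 units apart, with a mean of 9.63 ± 0.09 (SD, n = 4) in lung and 6.08 ± 0.67 in cerebellum (log2 difference 3.56 ± 0.28 SE, limma adjusted p = 4.98e-09). Hoxb4, a regulator of blood stem cell expansion, lay at 7.26 to 7.73 in lung and 5.34 to 6.03 in cerebellum (log2 difference 1.90 ± 0.18, limma adjusted p = 6.16e-08). Hoxa2, Hoxa3 and Hoxa4 had log2 differences of 1.86 ± 0.27, 2.53 ± 0.38 and 2.01 ± 0.37, without overlap between the groups. Hoxb3 and Hoxa7 had 1.67 ± 0.31 and 0.98 ± 0.16, also without overlap. Hoxb6 had 2.33 ± 0.42, but its groups overlapped, since cerebellar array B78 reached 6.94 and lung array B14 was at 6.92. In all, the 4 lung arrays lay above the 4 cerebellar arrays for 10 members, Hoxb1 (not called) among them, against 27.4% of all genes. No member had them all below, against 29% of all genes.

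Hoxa5 was represented by a probe set of a kind that may also bind related sequences. That probe set lay at 9.41 to 9.52 in vehicle lung and 7.42 to 8.42 in vehicle cerebellum, a log2 difference of 1.70 ± 0.20 (limma adjusted p = 9.85e-07). The other Hoxa5 probe set gave a log2 difference of 4.41. It lay at 10.36 to 10.65 in lung and, in cerebellum, at 8.78 in B78, 6.91 in B80, 4.61 in B81 and 4.22 in B79. The size of the Hoxa5 difference therefore depends on the probe set, and its direction does not. The second probe sets of Hoxa4, Hoxb3 and Hoxb4 had log2 differences of 0.49, 2.31 and 0.69, against 2.01, 1.67 and 1.90 for those used. The other 3 of Hoxa3 had 0.86, 0.43 and 0.36, against 2.53. The last of these was not called (limma adjusted p = 0.0653 over all probe sets).

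The Hoxc cluster and the 3′ part of the Hoxd cluster did not share this pattern. None of 7 Hoxc genes was called between the tissues, and 1 of the 7 had an unadjusted p under 0.05. Hoxc4 lay at 4.48 to 4.92 in vehicle lung and at 8.03, 4.42, 6.44 and 5.72 in vehicle cerebellum B78, B79, B80 and B81. Its log2 difference was -1.48 ± 0.65 (limma adjusted p = 0.0628), that is lower in lung, with the cerebellar arrays spread over 3.61. Hoxd3 had -0.74 ± 0.40 (limma adjusted p = 0.129). Both passed, at -0.86 and -0.39, when the cerebellar arrays B39 and B78 were left out (limma adjusted p = 0.0303 and 0.042), a choice made after seeing the data. Hoxc4 also passed without B39 or B79 alone (0.0147 and 0.00933), and Hoxd3 likewise (0.0219 and 0.0459). With array weights both were called lower in lung (0.00419 and 0.0123). On the 8 vehicle arrays alone Hoxc4 was called lower (0.0435), against 30.5% of all genes, and Hoxd3 was not (0.0553). The calls for Hoxd8 and Hoxd9 were lost when single arrays were left out: Hoxd8 without B79, B81, B12 or B19 (adjusted p 0.0694 to 0.113), and Hoxd9 without B80 or B19 (0.055 and 0.0601).

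**Figure D2:**
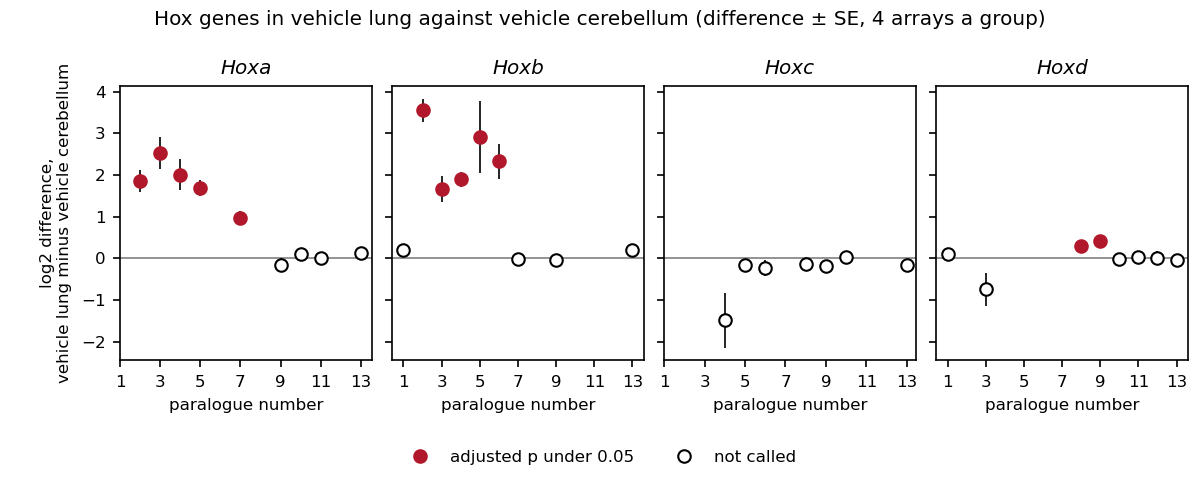
Log2 difference, vehicle lung minus vehicle cerebellum, for each Hox gene against its paralogue number, in a panel per cluster (points with SE of the limma fit, 4 arrays a group). Filled points were called. The difference is positive from Hoxa2 to Hoxa7 and from Hoxb2 to Hoxb6 and lies between -0.19 and 0.41 for posterior genes.

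In cerebellum, single arrays of the same treatment differed widely in the level of some Hox genes. Over the 8 cerebellar arrays, 11 members spanned more than 1 log2 unit: Hoxa2, Hoxa3, Hoxa4, Hoxa5, Hoxb2, Hoxb3, Hoxb4, Hoxb5, Hoxb6, Hoxc4 and Hoxd3. In each of those 11 the highest arrays were the same pair, B39 of the dexamethasone group and B78 of the vehicle group. They were 8 of 10 anterior, 3 of 9 central and 0 of 14 posterior members. Among all genes, 11% spanned more than 1 unit and 2.89% had this pair highest. The pair was chosen after its values were seen, so these counts are a description.

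Hoxb5, which marks the caudal hindbrain and spinal cord in the nervous system, showed the widest span, 25.7-fold. It lay at 7.85 in B39 and at 4.11, 4.25 and 4.39 in the other dexamethasone cerebella B49, B50 and B52. Among vehicle cerebella it lay at 8.52 in B78, 7.15 in B80, 4.70 in B81 and 3.84 in B79. Arrays thus fell at a high or a low level within each treatment. Hoxc4 spanned 12.2-fold, with 7.75 in B39, 8.03 in B78, 6.44 in B80, 5.72 in B81 and 4.42 to 4.89 on the other arrays. Hoxd3 lay at 5.98 in B39, 5.79 in B78, 4.70 in B80, 4.53 in B81 and 3.79 to 4.07 on the others. For both genes B80 and B81 came next after the pair. Hoxb6 was high in B78 alone among the 8, at 6.94, against 4.73 in B39 and 4.28 to 4.55 on the others.

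The same order appeared in the anterior members with smaller spans. Hoxa3 lay at 6.34 in B39 and 5.87 in B78, and at 4.19 to 5.11 on the other cerebellar arrays. Hoxb2 lay at 7.03 and 6.92 in that pair and at 5.33 to 6.22 on the others, and Hoxb3 at 8.04 and 7.91 against 6.43 to 7.14. The other 8 anterior or central members, Hoxa7, Hoxb1, Hoxb7, Hoxc5, Hoxc6, Hoxc8, Hoxd1 and Hoxd8, spanned 0.35 to 0.68 and did not have this pair highest. Over the 8 lung arrays of both treatments the 11 members spanned 0.34 to 1.99 log2 units, and 0.11 to 0.77 over the 4 vehicle lungs. Hoxa2 and Hoxb4 spanned more over the 8 lungs, 1.99 and 1.03, than over the 8 cerebella, 1.17 and 1.015.

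Other markers moved with part of this order. Slc6a5, the glycine transporter of inhibitory neurons of brainstem, spinal cord and cerebellum, was also highest in B39 and B78, at 8.87 and 7.85, against 5.83 to 7.06 on the other cerebellar arrays. The mean level of the 8 measured brainstem genes, of 10 listed, did not follow it, at 6.46 in B39, 5.74 in B78 and 4.92 to 6.30 on the others. The brainstem noradrenergic factor Phox2a lay at 3.85 to 4.59 on all 8. Other genes of that list did not have this pair highest. Dbh lay at 7.64 in B39 and 7.63 in B78, against 7.06 to 8.29 on the others. Tph2 lay at 6.62 and 4.22 against 4.19 to 6.54, and Slc6a2 at 9.27 and 7.90 against 4.63 to 9.61. The mean level of 5 choroid plexus genes was 9.26 in B39 and 9.09 in B78, and 8.02 to 8.95 on the others. Of these genes, the folate receptor Folr1 lay at 8.36 and 8.30 against 7.09 to 7.87. For Ttr, Kcne2, Kl and Clic6, B81 lay between B39 and B78, close to the lower of them. The part of these cell types in the Hox levels was not tested. Markers of cerebellar neurons identified the tissue on all 8 arrays: the mean of 7 was 11.33 to 12.05 in cerebellum and 4.59 to 5.02 in lung.

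**Figure D3:**
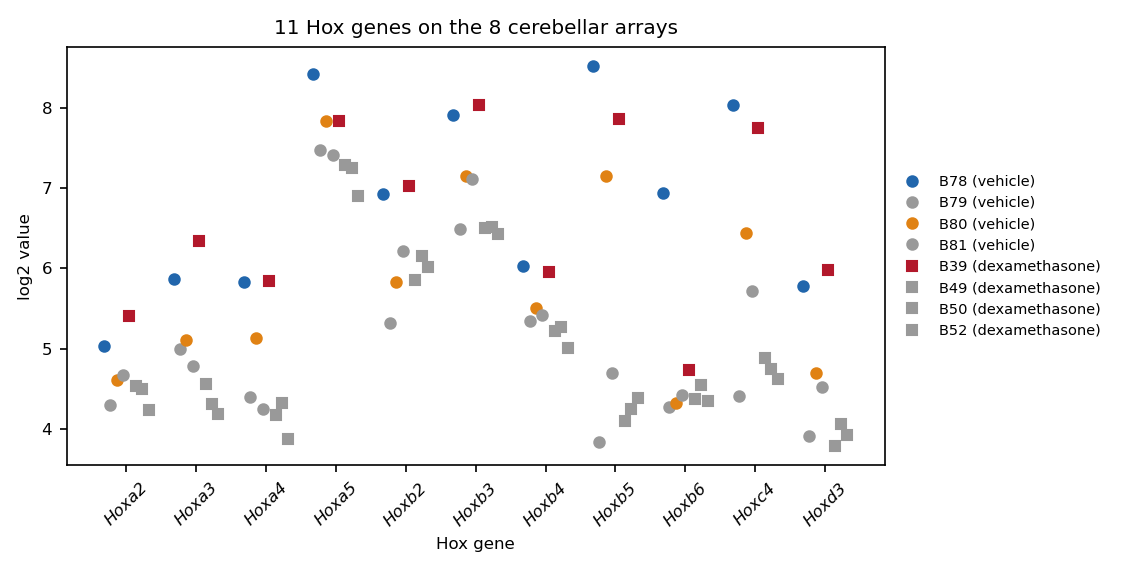
Log2 values of 11 Hox genes on the 8 cerebellar arrays (circles vehicle, squares dexamethasone). B78, B39 and B80 are coloured and the other arrays are grey. B78 and B39 lie highest for every gene shown, with B80 next for 8 of them, and for Hoxb6 B78 stands alone.

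In the treated lung, several anterior and central Hox genes were lower than in vehicle lung. Of 33 members, 5 fell and 1 rose (limma, adjusted p under 0.05), against 15.5% of all genes lower and 15.7% higher, 31.2% in either direction. The share of members lower was thus near that of all genes, and the 18.2% called in either direction was below it. Hoxa2 and Hoxa7 fell 1.77-fold and 1.40-fold, and Hoxb2, Hoxb4 and Hoxb6 fell 2.16-fold, 1.64-fold and 2.20-fold. Hoxd8 rose 1.33-fold. All 5 that fell were among the 10 Hoxa and Hoxb genes with a higher level in lung than in cerebellum, a comparison that uses the same vehicle lungs. The median log2 difference was 0.05 over the 33 members and 0.05 over all genes.

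Hoxb2 lay at 9.55 to 9.73 in vehicle lung and at 8.51, 8.63, 8.71 and 8.24 in dexamethasone lung B28, B31, B40 and B46. Every treated array lay below every vehicle array (log2 difference -1.11 ± 0.28 SE, limma adjusted p = 0.00533). Hoxb4 lay at 7.26, 7.43, 7.73 and 7.51 in vehicle lung and at 6.69, 6.78, 6.85 and 6.74 in treated lung (log2 difference -0.71 ± 0.18, limma adjusted p = 0.00576). The treated arrays were closely spaced, with an SD of 0.07. Hoxb6 lay at 7.08, 6.92, 7.70 and 7.60 in vehicle lung and at 6.28, 6.25, 6.13 and 6.08 in treated lung, again without overlap. Its log2 difference was -1.14 ± 0.42, at the threshold (limma adjusted p = 0.05), and the call was lost under 19 of 26 alternatives (0.0515 to 0.137).

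Hoxa2, which patterns the hindbrain and the second pharyngeal arch, lay at 6.43, 6.22, 6.50 and 6.93 in vehicle lung and at 6.19, 5.71, 5.94 and 4.94 in treated lung. Treated array B46 was the lowest, and the groups did not overlap (log2 difference -0.82 ± 0.27, limma adjusted p = 0.0266). That call was lost without B46 or B22 (0.0941 and 0.0873) and when Xist was added as a covariate (0.0547). Hoxa7 lay at 6.92 to 7.53 in vehicle and 6.57 to 7.08 in treated lung, with overlap (log2 difference -0.48 ± 0.16, limma adjusted p = 0.031). It was lost without B28, B40, B46, B19 or B22 (0.0563 to 0.0994), after quantile normalization was applied again (0.0741) and with array weights (0.0594). Without B46, or without B22, 2 members fell and 1 rose, namely Hoxb2, Hoxb4 and Hoxd8.

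Hoxd8 rose from 4.97, 4.67, 4.85 and 4.73 in vehicle lung to 5.21, 5.18, 5.49 and 5.01 in treated lung. All treated arrays lay above the vehicle arrays, although both groups were below the array median (log2 difference 0.42 ± 0.12, limma adjusted p = 0.0124). The second Hoxd8 probe set had a log2 difference of 0.53 (limma adjusted p = 0.0118 over all probe sets). The neighbouring Hoxd9 and Hoxd10 had 0.29 ± 0.14 and 0.24 ± 0.10 and were not called (limma adjusted p = 0.129 and 0.0866).

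For the members with wide spread among cerebellar arrays, other than Hoxa2, the error shared by all 4 groups was large against the spread among lungs. For Hoxa2 the SE was 0.27 in the shared fit and 0.25 on the 8 lung arrays alone. Hoxb5 lay at 8.78, 9.09, 8.85 and 9.13 in vehicle lung and at 7.82, 7.91, 8.09 and 7.80 in treated lung. The groups were apart by 0.69 at their nearest arrays, yet the log2 difference of -1.06 had an SE of 0.86 and a limma adjusted p of 0.392. The SD of Hoxb5 was 0.17 and 0.13 in the lung groups and 2.16 and 1.80 in the cerebellar groups. Fitted on the 8 lung arrays alone, the SE was 0.12 and the limma adjusted p 0.000148. In that fit 9 members fell and 1 rose, against 13.8% of all genes lower and 13.6% higher. Hoxa3 (log2 difference -0.96), Hoxa5 (-0.45), Hoxb3 (-0.75) and Hoxb5 were the ones added, with limma adjusted p of 0.0087, 0.00851, 0.000571 and 0.000148. With all arrays but B39 and B78, 8 members fell and 1 rose.

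Without regard to the fit, 9 members had every treated lung below every vehicle lung, against 15.5% of all genes, and 2 had every treated lung above, against 15.1%. The 9 were Hoxa2 to Hoxa5 and Hoxb2 to Hoxb6. The Hoxa4 groups were nearly touching, at 6.76 for the highest treated and 6.76 for the lowest vehicle array. Hoxa3 lay at 7.65 to 7.84 in vehicle lung and at 6.92, 7.08, 7.06 and, in B46, 6.01 in treated lung. Another Hoxa3 probe set was itself called lower (log2 difference -0.73, limma adjusted p = 0.0209 over all probe sets). The remaining Hoxa3 probe sets, both dimmer, had -0.07 and -0.27 and were not called (limma adjusted p = 0.804 and 0.126). The second probe set of Hoxb3 lay at 9.13 to 9.27 in vehicle and 7.76 to 8.42 in treated lung, without overlap. Its log2 difference of -0.99 had an SE of 0.59 in the shared fit and was not called (limma adjusted p = 0.247 over all probe sets). The second probe set of Hoxa5 lay at 10.36 to 10.65 in vehicle and 8.61 to 9.68 in treated lung, with a log2 difference of -1.26 (limma adjusted p = 0.319 over all probe sets). The second, dimmer probe set of Hoxb4 had a log2 difference of -0.02 (limma adjusted p = 0.939 over all probe sets), so the fall of Hoxb4 rests on the brighter one. The 7 Hoxc members had log2 differences of 0.05 to 0.28 and the 14 posterior members of -0.01 to 0.35, none of them called.

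**Figure D4:**
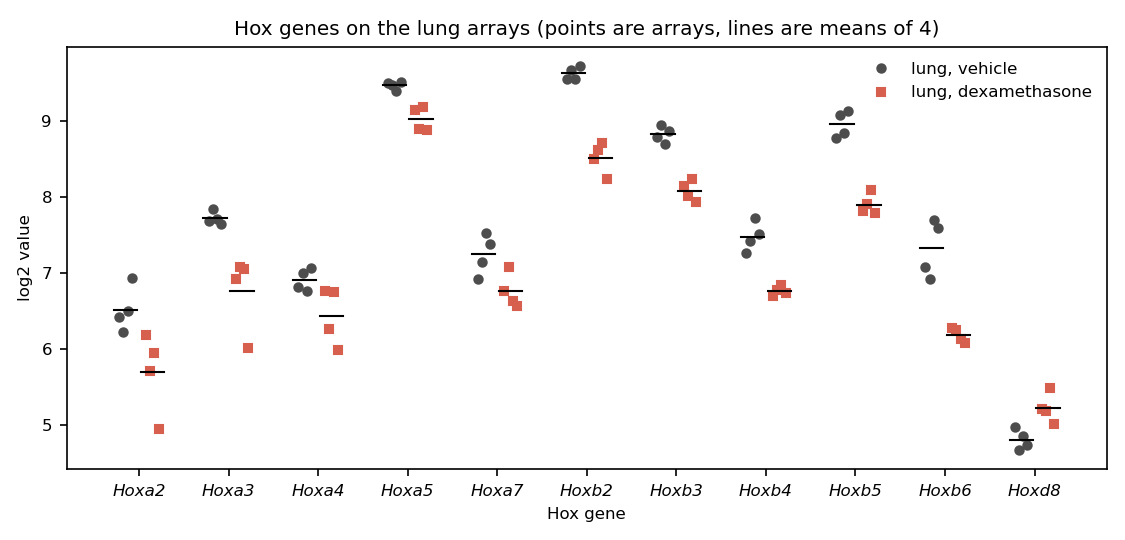
Log2 values of 11 Hox genes on the lung arrays, vehicle (circles) and dexamethasone (squares), with the mean of each group of 4 as a line. From Hoxa2 to Hoxb6 the treated means lie below the vehicle means, and the order is turned for Hoxd8.

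Cell type markers also moved between the treated and vehicle lungs, where 15.5% of all genes were called lower and 15.7% higher. Of 9 lung mesenchyme genes, 1 fell, Tbx4, 1.49-fold, and their mean level was 9.33 to 9.79 in treated and 9.87 to 10.01 in vehicle lung. Within that list the median log2 difference was -0.23, and 8 genes were not called. Those 8 ran from -0.84 ± 0.39 for Wnt2 to 0.10 ± 0.21 for the fibroblast factor Tcf21, the only positive value. Wnt2 lay at 7.65 in treated array B46, at 9.84 to 10.18 in the other treated lungs and at 10.10 to 10.31 in vehicle lung. The lowest list mean, 9.33, was also that of B46, against 9.64 to 9.79 in the other treated lungs. Gli1 had -0.57 ± 0.21, Tbx5 -0.53 ± 0.26 and Foxf1 -0.23 ± 0.20. Of 4 smooth muscle genes 3 fell, with mean levels of 9.48 to 10.55 and 10.92 to 11.31. Of 5 genes of meninges and fibroblasts 3 fell, and of 7 endothelial genes 4 fell. All 4 genes of dividing cells fell, with mean levels of 7.03 to 7.81 in treated and 9.89 to 10.37 in vehicle lung. Of 8 epithelial genes 4 rose, of 5 heart genes 4 rose, and of 4 leukocyte genes 2 rose. The 3′ minus 5′ signal of the Gapdh control was 0.446 to 0.708 in treated and 0.84 to 1.04 in vehicle lung. The part of these differences in the Hox values was not tested.

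Binding and methylation were not analysed here, and the upstream sequences of the called genes are shown as context for the members called in lung, 3 that fell and 1 that rose among those printed. RefSeq windows of 250 bases before the annotated start were available for 4 of the 6 called members, on GRCm38.p6, and Hoxb2 and Hoxb6 had no entry in the table. They are chr6:52164832-52165081 on the minus strand for Hoxa2, chr6:52218574-52218823 on the minus strand for Hoxa7, chr11:96318017-96318266 on the plus strand for Hoxb4 and chr2:74704365-74704614 on the plus strand for Hoxd8. Each runs 5′ to 3′ toward the gene. Capitals mark matches on either strand to the retinoic acid receptor core motif AGGTCA, the Hox-Pbx site TGATNNAT or the glucocorticoid receptor core motif TGTTCT.
Hoxa2: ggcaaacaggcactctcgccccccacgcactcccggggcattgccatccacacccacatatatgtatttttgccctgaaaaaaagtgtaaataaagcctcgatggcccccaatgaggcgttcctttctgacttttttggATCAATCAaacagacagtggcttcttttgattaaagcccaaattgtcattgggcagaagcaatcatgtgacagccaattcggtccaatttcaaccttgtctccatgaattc
Hoxa7: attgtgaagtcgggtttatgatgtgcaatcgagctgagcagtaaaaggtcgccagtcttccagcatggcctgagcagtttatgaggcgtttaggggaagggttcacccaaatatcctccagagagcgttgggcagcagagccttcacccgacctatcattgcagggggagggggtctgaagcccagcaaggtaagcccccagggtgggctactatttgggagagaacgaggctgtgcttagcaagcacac
Hoxb4: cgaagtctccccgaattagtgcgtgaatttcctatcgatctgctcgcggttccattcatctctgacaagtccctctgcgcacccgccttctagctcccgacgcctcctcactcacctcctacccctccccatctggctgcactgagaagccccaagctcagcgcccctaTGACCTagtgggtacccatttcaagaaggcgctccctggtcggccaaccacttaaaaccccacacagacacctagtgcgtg
Hoxd8: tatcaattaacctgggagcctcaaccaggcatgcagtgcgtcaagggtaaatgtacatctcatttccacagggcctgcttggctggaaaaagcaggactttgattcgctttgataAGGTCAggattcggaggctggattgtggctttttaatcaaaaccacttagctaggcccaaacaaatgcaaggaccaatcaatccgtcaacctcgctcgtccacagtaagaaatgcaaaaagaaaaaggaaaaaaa
The Hoxa2 window holds a Hox-Pbx match, Hoxb4 and Hoxd8 each hold a retinoic acid receptor core motif, and the Hoxa7 window holds none of the 3. Among all 32851 windows in the table, 14% hold AGGTCA, 7.68% TGATNNAT and 16.1% TGTTCT. The full glucocorticoid response element, AGAACA and TGTTCT separated by 3 bases of any kind, was in 0 of the 21 Hox windows, and in 3 of all windows. The full element contains the TGTTCT motif, no matches overlap in the windows printed, and a match is only a match of letters.

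In the treated cerebellum no Hox gene was called (limma, adjusted p under 0.05), against 2.84% of all genes higher and 1.97% lower (4.8% in all), and 1 had an unadjusted p under 0.05, Hoxa5. The 33 log2 differences ran from -0.90 to 0.21, with a median of -0.01. Hoxa5 lay at 7.83, 7.28, 7.25 and 6.90 in dexamethasone and at 8.42, 7.47, 7.83 and 7.42 in vehicle cerebellum, with overlap (log2 difference -0.47 ± 0.20, limma adjusted p = 0.232). With array weights it was called (-0.68, adjusted p = 0.0315), and without B78 the difference was -0.25. Hoxb5 had -0.90 ± 0.86, Hoxc4 -0.65 ± 0.65 and Hoxd3 -0.29 ± 0.40. Those errors are about as large as the differences or larger. In these genes B39 lay far above the other dexamethasone cerebella, and B78 was highest among vehicle cerebella, with B80 next. Hoxb2 had 0.19 ± 0.28 and Hoxa2 0.02 ± 0.27. Hoxb1, a hindbrain segment gene, had every treated array above every vehicle array, at 3.799 to 4.21 against 3.69 to 3.79 (limma adjusted p = 0.409), at the floor of the array. It was the single such member, against 7.13% of all genes, and no member had the opposite order, against 5.44%. In the same arrays 5 of 7 endothelial genes, 3 of 5 genes of meninges and fibroblasts and 3 of 4 leukocyte genes fell, and their part in the Hox values was not tested.

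**Figure D5:**
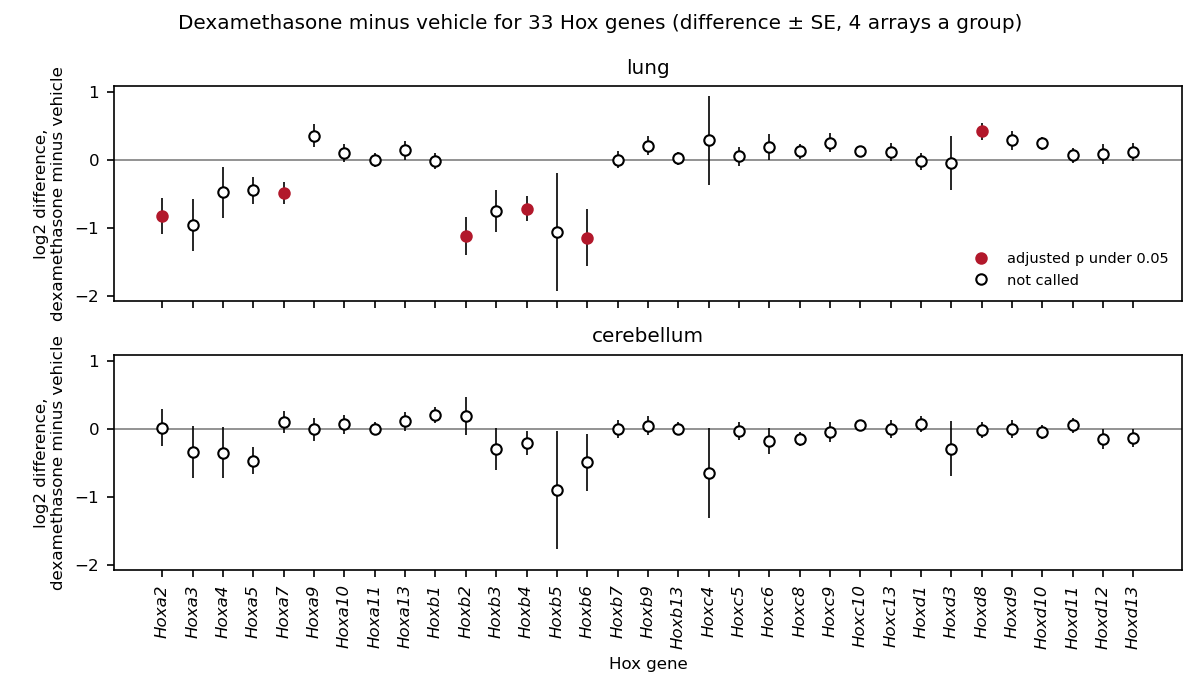
Log2 difference, dexamethasone minus vehicle, for 33 Hox genes in lung (top) and cerebellum (bottom), with the SE of the limma fit and 4 arrays a group. Filled points were called: 6 in lung and 0 in cerebellum. Errors are widest for Hoxb5 and Hoxc4 in both panels, since both share the spread of all groups.

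A difference in response between the organs was called for 1 of 33 members, Hoxb2, against 11.5% of all genes with a lower and 9.85% with a higher effect in lung. Dexamethasone went with a change of -1.11 in lung and 0.19 in cerebellum, a difference of -1.30 ± 0.39 (limma adjusted p = 0.0251). The call was lost without B80 (0.0515) and with array weights (-0.81, 0.116). Hoxa7 and Hoxd8 had differences of -0.58 ± 0.23 and 0.43 ± 0.17 (limma adjusted p = 0.085 and 0.0796). Hoxa7 passed with array weights or without B31 or B12, and Hoxd8 with array weights, when its probe sets were averaged, or without B79 or B46. Hoxb6 had -0.65, and -1.30 without B78 (limma adjusted p = 0.00091). For Hoxa2 and Hoxb4 the difference was not called, so their fall in lung was not shown to differ from cerebellum.

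Hox proteins bind DNA with TALE-class cofactors of the Pbx, Meis and Pknox families. In the treated lung 4 of 8 measured cofactors fell and 0 rose, against 15.5% of all genes lower and 15.7% higher: Meis1 1.68-fold, Pknox1 1.51-fold, Pbx3 1.53-fold and Meis3 1.75-fold. Their log2 differences were -0.75 ± 0.13, -0.59 ± 0.11, -0.62 ± 0.13 and -0.81 ± 0.19 (limma adjusted p from 0.000288 to 0.00393). The median over the 8 was -0.58, against 0.05 over all genes. In cerebellum 1 rose, Pbx2, 1.49-fold, and 7 were not called, against 2.84% of all genes higher. For 5 of the 8 the effect was lower in lung than in cerebellum by the test of the difference, against 11.5% of all genes, namely Pbx2, Pbx3, Meis1, Meis3 and Pknox1. Between vehicle organs, Pbx2 was 2.86-fold higher in lung and Meis1 2.03-fold and Meis3 1.45-fold higher in cerebellum.

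Polycomb proteins keep Hox clusters silent, and trithorax proteins keep them active. Of 14 Polycomb genes 4 fell in treated lung and 0 rose, against 15.5% of all genes lower and 15.7% higher, 31.2% in either direction. The methyltransferase Ezh2 fell 2.66-fold, Cbx2 1.74-fold, Suz12 1.44-fold and Jarid2 1.36-fold, with a list median of -0.13. Ezh2 is also expressed in dividing cells, whose 4 markers fell, and their part in the Ezh2 values was not tested. Of 8 trithorax and demethylase genes 3 fell and 0 rose, against the same shares of all genes. They were Kmt2a, 1.43-fold, Wdr5, 1.21-fold, and Kdm6b, 1.34-fold. In cerebellum a single gene of each list rose, Eed and Kmt2b, both 1.43-fold, against 2.84% of all genes higher. Of 10 upstream regulators, 1 rose, 1 fell and 8 were not called in treated lung, a share called below the 31.2% of all genes. The retinoic acid synthesis enzyme Aldh1a2 rose 1.62-fold and the retinoic acid degrading enzyme Cyp26b1 fell 1.73-fold. The retinoic acid receptors Rara, Rarb and Rarg were among those not called. In cerebellum 0 of these 10 were called, against 4.8% of all genes.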

How the data were processed

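Affymetrix arrays were hybridised with biotin-labelled target made from total RNA, per the labels' protocols. The deposited log2 values, 1 per probe set, are RMA output of the authors, per the submitters' processing notes; no RMA settings are named there. Values ran from 3.15 to 14.83 and the medians of the 16 arrays lay at 5.87 to 6.00. Precision is limited by the number of arrays, 4 a group. Within a tissue arrays correlated at 0.946 to 0.996, no pair was identical, and the labels call the samples biological replicates without naming litters, so a p-value reflects only the spread among them. Xist was above 9 on 7 arrays, unequally over groups.

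Probe sets were named from the platform annotation, with symbols updated through RefSeq; 34945 had 1 symbol and 932 several, and none was named from the latter. Of several probe sets for a gene, that of highest mean over 16 arrays was used, and 11 of 33 Hox genes had more than 1. Groups were compared with limma 3.58.1 in R 4.3.3, with 4 group means and a spread per gene shared by all groups (12 residual degrees of freedom). P-values were adjusted by Benjamini-Hochberg over 18193 genes and called under 0.05, with no filter on dim genes. The fit was tested on simulated data. All Hox members were named, and up to 4 called members of each other list by smallest adjusted p. Members, lists and tests were chosen with earlier results of these data known. Alternatives were averaged or single probe sets, renewed normalization (cyclic loess or quantile), a dim-gene filter, only the arrays compared, a variance trend, array weights, Xist as a covariate and leaving out arrays.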

Additional observations from a re-analysis of the deposited data

Results flagged for a closer look

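In 10 of 132 groups of 4 values, a single array stood apart from the other 3 by Dixon's criterion, where chance gives about 1 in 20. The dexamethasone cerebellum B39 was the high array for Hoxb3 (8.04, others 6.43 to 6.52), Hoxb5 (7.85, others 4.11 to 4.39), Hoxc4 (7.75, others 4.63 to 4.89) and Hoxd3 (5.98, others 3.79 to 4.07). The vehicle cerebellum B78 was high for Hoxb6 (6.94, others 4.28 to 4.43), and B79 for Hoxc6 (5.55, others 5.27 to 5.32). The dexamethasone lung B46 was low for Hoxa3 (6.01, others 6.92 to 7.08) and Hoxd13 (4.604, others 5.10 to 5.18). It was high for Hoxb1 (4.28, others 3.8 to 3.82) and Hoxd11 (4.51, others 4.21 to 4.26), both near the floor.

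The effect of dexamethasone differed between the organs for Hoxb2 by the limma interaction, at -1.30 (lung minus cerebellum).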

How the results depend on the processing

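No Hox gene called in any comparison changed direction under an alternative. Between vehicle organs 10 to 14 members were called, within 1.5 times the 12 reported. The lung effect gave 6 called, 4 to 7 under 8 alternatives on all arrays, 10 on the lung arrays alone, 9 without B39 and B78, and 3 to 7 when single arrays were left out, with 3 without B46 or without B22. The cerebellar effect gave 0 called, also with every single array left out (0 to 0), and 1 with array weights, Hoxa5. The difference between organs gave 1 called, 2 with probe sets averaged, with array weights or without B39 and B78, and 0 to 2 with single arrays left out: 0 without B80 and 2 without B78, B79, B31, B46 or B12. Only 12 of the 33 members passed the filter on dim genes, so that setting tests fewer. No paired analysis was possible because no replicate number is shared between groups. Signal near the floor limits what could be seen for the 18 members below the array median everywhere. The hybridization date is the same in all labels, so no batch could be tested.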
